A study of Mus musculus with 6 samples.

Results

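The genes described here are 46 mouse genes of DNA replication and S phase, found by symbol among the 55487 gene rows of each library. They come from a list by function that was chosen with earlier results of these data known. Each symbol matched 1 row, and all 46 passed the low-count filter that left 17396 genes for testing. They were measured by bulk RNA sequencing in the mammary tumours of MMTV-PyMT mice, a strain in which the mouse mammary tumour virus promoter drives the polyoma middle T oncoprotein in mammary epithelium. One group is 3 mammary tumour samples labelled as LXR agonist, named DMHCA in the titles, a steroidal activator of the liver X receptors. The other is 3 vehicle samples from the same transgenic strain. Dosing was oral, in gel cups, without a break from 6 weeks of age. The sample titles carry 1 code for DMHCA and another for vehicle, so whatever the codes stand for cannot be told apart from the treatment. The labels give neither the age at collection nor whether the samples of a group, called tumours below, came from separate mice or tumours. The p-values here therefore describe the variation among 6 libraries, some of which may be technical.

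Before a cell copies its genome, the origin recognition complex, Cdc6 and Cdt1 load the ring-shaped MCM helicase onto DNA, and geminin (Gmnn) blocks Cdt1 once S phase has begun. Cdc45 and the GINS complex then turn the ring into an active helicase, primase and the polymerases follow it, and the clamp PCNA, placed by the RFC loader, holds the polymerases on the strand. E2F factors and cyclin E control the supply of nearly all of these transcripts at the border of G1 and S, so the set is widely read as a measure of cycling cells in a tumour.

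Libraries held 36577451, 40159352 and 41434703 expected counts in DMHCA tumours and 42595799, 39977825 and 40680106 in vehicle tumours. Members summed to 0.194%, 0.229% and 0.227% of the counts in DMHCA tumours and to 0.196%, 0.202% and 0.172% in vehicle tumours, and the least abundant count of any member in any library was 143, for Orc1. All 10 luminal epithelial markers were detected in every library, with summed levels of 4530 to 4802 CPM (counts scaled to a common library total) in DMHCA tumours and 4575 to 5300 in vehicle tumours. The 6 skeletal muscle markers were also detected in every library, at 537 to 810 CPM in DMHCA tumours and 470 to 590 in vehicle tumours. In bulk tumour RNA, fewer cycling cells and less RNA per cycling cell cannot be told apart.

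No member was called different between DMHCA and vehicle tumours. The share of all genes called was 0% in the edgeR quasi-likelihood test at a Benjamini-Hochberg adjusted p under 0.05, and the adjusted p of every member was at least 0.99. At an unadjusted p under 0.05 the test gave 0 members in either direction, against 0.719% of all genes higher and 2.37% lower with DMHCA. Means were higher with DMHCA for 38 of the 46 members and lower for 8, where 49.3% of all tested genes had a positive and 50.7% a negative log2 fold change. The median log2 fold change of the members was 0.13, against a median near 0 (-0.0049) over all genes. Single members ran from -0.43 for E2f1 to 0.49 for Ccne1.

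The 95% interval of the fold change included no change for 46 of 46 members and lay within a 2-fold change in either direction for 44. The exceptions were Orc1, with an upper bound of 2.04-fold, and E2f1, with a lower bound of 0.478-fold. Members varied less between libraries of a group than genes in general. Their median coefficient of variation was 11.8% in DMHCA tumours and 16.9% in vehicle tumours, against 17.04% in DMHCA tumours and 22.6% in vehicle tumours over all tested genes. These sets were not matched for level. No member had a count under 143, while the minimum count of the filter was 10.

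**Figure D1:**
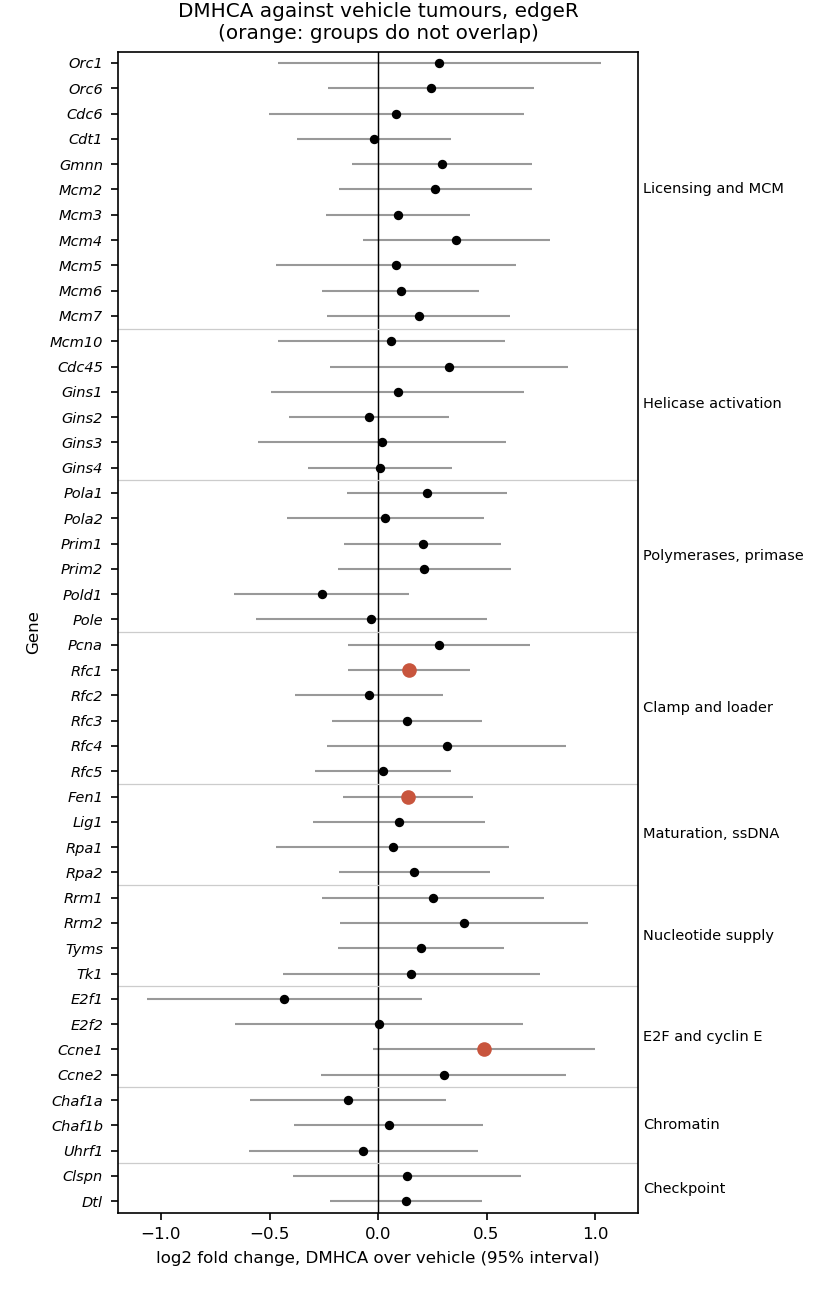
Log2 fold change of each member, DMHCA over vehicle (x axis), with its 95% interval, ordered by role (y axis). Every interval crosses 0, and the 3 orange points (Rfc1, Fen1 and Ccne1) are members whose lowest DMHCA library lay above the highest vehicle library.

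The pattern differed from library to library. Vehicle replicate 3 was the lowest of the 6 libraries for 21 of 46 members (45.7%, against 20.7% of all genes) and lay above a member's 6-library mean for only 2. DMHCA replicate 2 was the highest for 17 members and DMHCA replicate 3 for 12, while DMHCA replicate 1 was the highest for 2 and the lowest for 10. Each of DMHCA replicates 2 and 3 lay above the mean for 37 members, vehicle replicate 2 for 35, vehicle replicate 1 for 17 and DMHCA replicate 1 for 16. Without vehicle replicate 3 the positive members numbered 28 of 46 and the median log2 fold change was 0.061. Without vehicle replicate 1 they numbered 42, and without DMHCA replicate 2 they numbered 31.

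**Figure D2:**
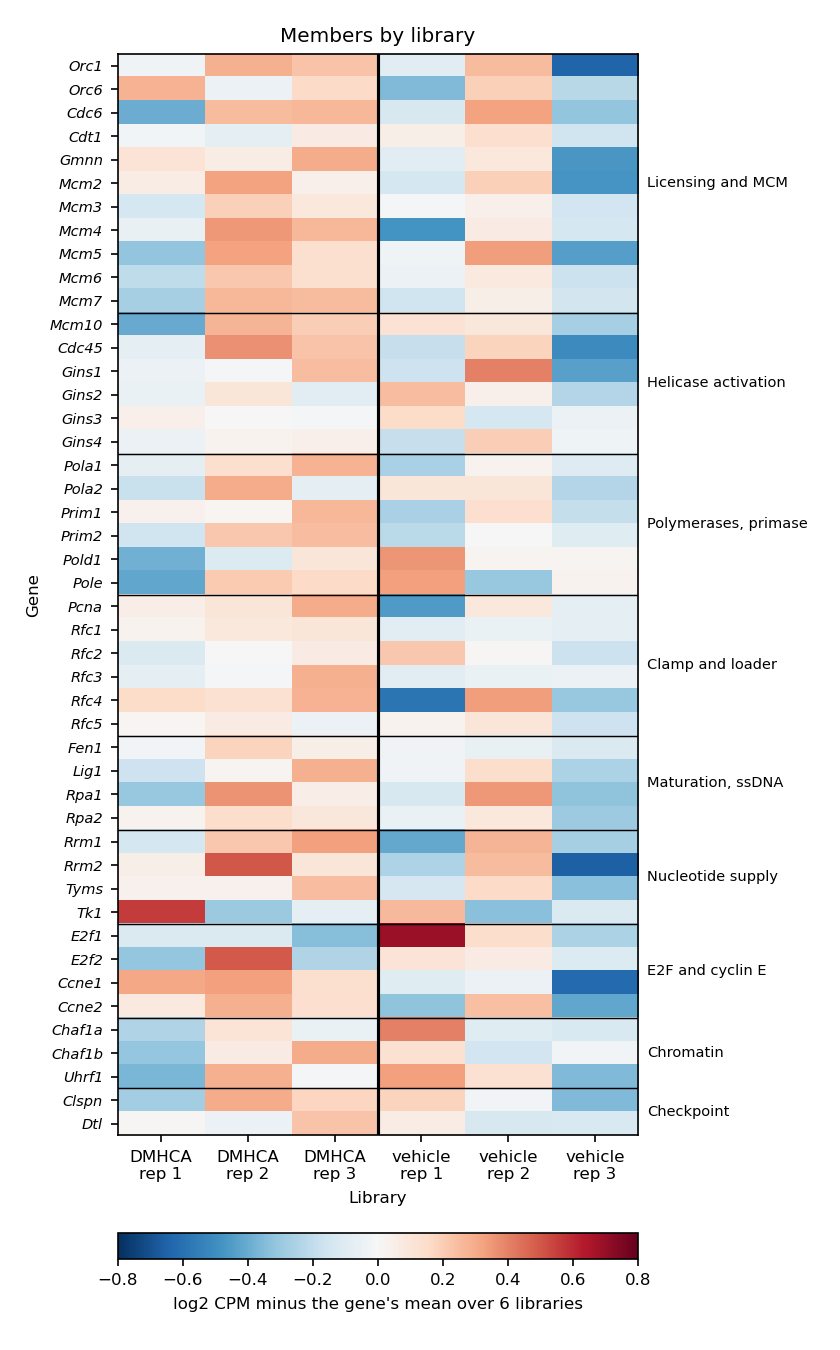
Each cell is the log2 CPM of 1 member (y axis, by role) in 1 library (x axis), minus that member's mean over the 6 libraries, with red above and blue below. Vehicle replicate 3 is blue for nearly all rows, DMHCA replicates 2 and 3 are mostly red, and DMHCA replicate 1 is mixed.

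The members' mean deviation, in log2 CPM, was -0.084, 0.15 and 0.13 in DMHCA replicates 1 to 3 and -0.038, 0.085 and -0.24 in vehicle replicates 1 to 3, so the groups overlapped. Over pairs of members the correlation across the 6 libraries had a median of 0.48, and 80.3% of the 1035 pairs were positive. Measured on deviations from the group means the median was also 0.48. All pairs share the same 6 libraries, so these values are descriptions.

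Markers of other cell types also varied between libraries, though not in the same order of libraries as the members. Vehicle replicate 3 also had the lowest mean deviation of the 8 fibroblast markers (-1.97, against 0.053 to 0.75 in DMHCA tumours and up to 1.18 in the other vehicle tumours). It was lowest as well for the 8 myeloid markers (-1.29), the 6 endothelial markers (-0.77) and the 8 basal and myoepithelial markers (-1.54). DMHCA replicate 3 was the highest for the basal and myoepithelial markers (1.80). Summed levels of fibroblast markers were 3119 to 4958 CPM in DMHCA tumours and 554 to 6350 CPM in vehicle tumours, and those of myeloid markers 579 to 652 CPM in DMHCA tumours and 205 to 992 CPM in vehicle tumours. B and plasma cell markers were near 0, at 1.26 to 7.52 CPM in DMHCA tumours and 0.939 to 1.301 CPM in vehicle tumours, with 3 of 6 at 0 in at least 1 library. The 10 luminal markers had mean deviations of -0.13 to -0.035 in DMHCA tumours and -0.10 to 0.30 in vehicle tumours, a spread about as wide as that of the members. Of these markers 7 had lower means with DMHCA and 2, Elf3 (log2 fold change -0.62 ± 0.19) and Krt18 (-0.17 ± 0.14), were lower in every DMHCA library, against 4.22% of all genes. The luminal keratin Krt19 had 172 to 221 CPM in DMHCA tumours and 162, 605 and 139 CPM in vehicle tumours, so vehicle replicate 2 stood apart. The part of these cell types in the members' pattern was not tested.

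**Figure D3:**
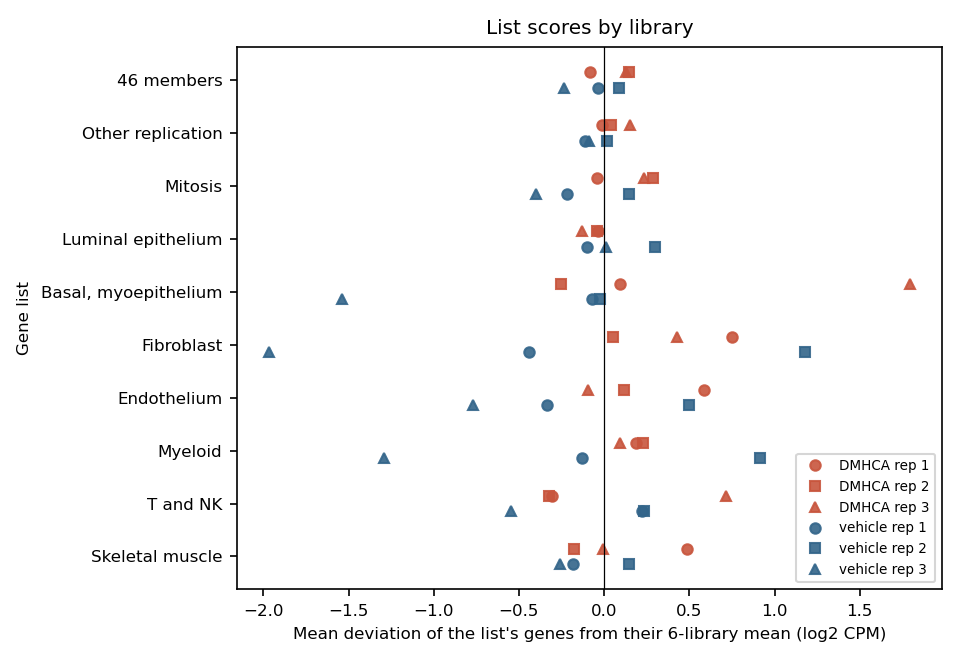
Score of each gene list (y axis) in each library, as the average log2 CPM distance of its genes to their own 6-library means (x axis; points, with DMHCA in orange and vehicle in blue). The spread of the 46 members, from -0.24 to 0.15, is small beside that of the fibroblast markers, from -1.97 to 1.18. Vehicle replicate 3 is leftmost in both, but DMHCA replicate 1 lies at 0.75 for the fibroblast markers and at -0.084 for the members.

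Licensing genes had higher means with DMHCA in 10 of 11 cases, with a median log2 fold change of 0.19, which ran from 0.081 without vehicle replicate 3 to 0.29 without vehicle replicate 2. Mcm4, a subunit of the MCM ring, lies on chromosome 16 (15623897 to 15637400, minus strand, GRCm38) and had 52.0, 69.1 and 65.2 CPM in DMHCA tumours and 38.9, 56.9 and 49.3 CPM in vehicle tumours. The highest vehicle library lay above the lowest DMHCA library, so the groups overlapped. The log2 fold change was 0.36 ± 0.19 (SE; 95% interval -0.070 to 0.79), and 0.23 without vehicle replicate 1. Mcm2, the subunit that also carries histones, had 61.5, 73.6 and 60.7 CPM in DMHCA tumours and 53.5, 67.2 and 42.5 CPM in vehicle tumours, with the low value again in vehicle replicate 3. A log2 fold change of 0.26 ± 0.19 became 0.12 without that library. The other 4 ring subunits had smaller differences, with log2 fold changes of 0.19 for Mcm7, 0.10 for Mcm6, 0.091 for Mcm3 and 0.082 for Mcm5.

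The licensing factor Cdt1 and its inhibitor geminin are set side by side, though the 95% intervals of both included no change. A difference between these genes was not tested. Cdt1 had 23.9, 23.1 and 25.4 CPM in DMHCA tumours and 25.1, 26.7 and 21.7 CPM in vehicle tumours, a log2 fold change of -0.020 ± 0.15, and the groups overlapped almost entirely. Gmnn had 33.9, 32.8 and 38.7 CPM in DMHCA tumours and 29.7, 33.4 and 22.8 CPM in vehicle tumours, with the lowest value in vehicle replicate 3. For Gmnn the log2 fold change was 0.30 ± 0.18 (95% interval -0.12 to 0.71), and 0.16 without that library. In TPM, a level corrected for transcript length, the ratio of Gmnn to Cdt1 was 3.80, 3.95 and 4.03 in DMHCA tumours and 3.31, 3.45 and 2.94 in vehicle tumours. The ratio did not overlap between the groups, but it was one of 5 ratios chosen after the single values had been seen, and it was not tested.

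Orc1, the ATPase subunit of the origin complex that comes and goes with the cycle, was the scarcest member, at 5.45, 6.76 and 6.49 CPM in DMHCA tumours and 5.22, 6.60 and 3.56 CPM in vehicle tumours. Orc6, another subunit of that complex, had a log2 fold change of 0.24 ± 0.20, and Cdc6, the loading ATPase, one of 0.085 ± 0.25. Reads of Orc6 are uncertain, because its exons overlap those of Vps35 on the opposite strand, whose mean count was 620% of its own, and no strand setting is given.

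Promoters of many of these genes carry E2F sites, and those of the licensing genes are shown because E2F is the common regulator of the set. RefSeq promoter windows on GRCm38.p6, from 250 bases before to 50 after a start site, were at hand for 37 members in 43 windows. There was none for Gmnn, Mcm4, Gins1, Gins2, Gins4, Prim2, Pole, Rfc2 and Ccne2. The E2F words were searched on both strands (TTTCCCGC, TTTCGCGC, TTTGCCGC and TTTGGCGC), which can overlap one another. At least 1 word was in 16 of 43 windows (37.2%) and in 16 members, against 2.26% of all 32851 windows in the table. Below are the first matches in the 7 licensing genes that had one, in the direction of the gene, with capitals marking the E2F words, which read GCGGGAAA, GCGCGAAA or GCGCCAAA where the word is on the opposite strand.
Orc1, chr4:108579418-108579443, plus strand: cggttagtgGCGCGAAAagttttctc
Cdc6, chr11:98908004-98908029, plus strand: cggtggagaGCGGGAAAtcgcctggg
Cdt1, chr8:122568038-122568063, plus strand: aactaccttTTTGGCGCcatggcgca
Mcm3, chr1:20820277-20820302, minus strand: acttccgtgGCGGGAAAacttgggaa
Mcm5, chr8:75109347-75109372, plus strand: gccaagaacTTTCGCGCCAAAacgtc
Mcm6, chr1:128359799-128359824, minus strand: gcgtatgctTTTGGCGCGAAAagtgc
Mcm7, chr5:138172032-138172057, minus strand: tttcgaaccGCGGGAAAcagggtgtc
In Mcm5 and Mcm6 words on both strands overlap in a near palindrome. The 16 members with a word had a median log2 fold change of 0.094 (13 positive), and the 21 members with a window but no word had one of 0.17 (19 positive). A match is a description of letters and does not show a bound site. The CCAAT box, searched as CCAAT, was in 27 of 43 windows against 37.4% of all windows. The cell cycle homology words TTTGAA and TTCGAA were in 7, against 19.2% of all windows.

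Genes of helicase activation showed little difference, with 5 of 6 means higher with DMHCA and a median log2 fold change of 0.041. That median was -0.027 without vehicle replicate 3, -0.0063 without DMHCA replicate 3 and 0.11 without vehicle replicate 2. Cdc45, the subunit that joins the MCM ring and GINS, had 14.6, 19.8 and 18.1 CPM in DMHCA tumours and 13.5, 17.4 and 10.8 CPM in vehicle tumours. The groups overlapped, and its log2 fold change of 0.33 ± 0.24 became 0.18 without vehicle replicate 3. Its exons overlap those of Ufd1 on the opposite strand, whose mean count was 389% of its own. Gins1, a GINS subunit, had 14.9, 15.4 and 18.4 CPM in DMHCA tumours and 13.8, 20.5 and 11.4 CPM in vehicle tumours, with the highest and the lowest library both vehicle. Its log2 fold change was 0.090 ± 0.25, and -0.074 without vehicle replicate 3. The other GINS genes lay close to 0, at -0.042 for Gins2, 0.019 for Gins3 and 0.0081 for Gins4, and Mcm10, a scaffold of the firing helicase, was at 0.062.

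Polymerase genes differed in both directions, with 4 of 6 means higher with DMHCA and a median log2 fold change of 0.12, which ran from 0.018 without DMHCA replicate 2 to 0.19 without DMHCA replicate 1. The catalytic subunit of polymerase alpha, Pola1, which starts each strand with primase, had 27.6, 31.9 and 35.3 CPM in DMHCA tumours and 24.3, 29.6 and 27.1 CPM in vehicle tumours, a log2 fold change of 0.23 ± 0.16, and 0.14 without DMHCA replicate 3. Pold1, the catalytic subunit of the lagging-strand polymerase delta, had 32.2, 39.0 and 44.9 CPM in DMHCA tumours and 53.7, 42.6 and 42.7 CPM in vehicle tumours. The highest value was vehicle replicate 1 and the lowest DMHCA replicate 1, and the groups overlapped through DMHCA replicate 3. Its log2 fold change of -0.26 ± 0.17 (95% interval -0.66 to 0.14) became -0.14 without vehicle replicate 1. The primase subunits Prim1 and Prim2 were each at 0.21, Pola2, the accessory subunit of polymerase alpha, at 0.034, and Pole, the leading-strand polymerase, at -0.031.

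The promoters of Pola1 and Pold1 are printed whole because each holds 1 E2F word, in capitals, while their means differed in opposite directions. Each is 300 bases long, in the direction of the gene, on the minus strand of GRCm38.p6.
Pola1, chrX:93632106-93632405: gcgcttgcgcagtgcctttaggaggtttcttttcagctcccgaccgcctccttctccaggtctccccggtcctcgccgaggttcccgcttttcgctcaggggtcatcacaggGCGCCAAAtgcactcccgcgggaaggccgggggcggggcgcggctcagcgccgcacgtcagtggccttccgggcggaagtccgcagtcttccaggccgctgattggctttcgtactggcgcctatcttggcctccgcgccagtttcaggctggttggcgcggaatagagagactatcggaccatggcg
Pold1, chr7:44548766-44549065: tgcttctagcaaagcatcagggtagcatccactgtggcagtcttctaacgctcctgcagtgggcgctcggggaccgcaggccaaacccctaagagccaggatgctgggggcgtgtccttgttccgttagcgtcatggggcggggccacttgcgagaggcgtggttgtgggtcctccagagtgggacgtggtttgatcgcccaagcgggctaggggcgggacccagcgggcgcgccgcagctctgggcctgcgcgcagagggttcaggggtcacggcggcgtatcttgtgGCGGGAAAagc
The word starts 138 bases before the start site in Pola1 (position -138) and after it in Pold1 (position 39). Pola1 holds 1 CCAAT word and Pold1 holds 0, and the GC content of both windows is 65.7%.

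In the clamp and clamp loader group 5 of 6 means were higher with DMHCA, with a median log2 fold change of 0.14, which was 0.090 without DMHCA replicate 3. Pcna, the sliding clamp and the most abundant member, had 253, 261 and 300 CPM in DMHCA tumours and 179, 259 and 232 CPM in vehicle tumours. Vehicle replicate 2 lay among the DMHCA values, and the log2 fold change of 0.28 ± 0.18 became 0.14 without vehicle replicate 1. Expected counts of Pcna were not whole in 6 of 6 libraries, though no exon of another gene overlaps its own, so its level is uncertain too. Rfc1, the large subunit of the loader, had 65.0, 67.4 and 68.0 CPM in DMHCA tumours and 59.6, 61.4 and 60.6 CPM in vehicle tumours. Its groups did not overlap, which held for 3 of 46 members and for 3.02% of all genes in that direction. The difference was small, with a log2 fold change of 0.14 ± 0.12 (95% interval -0.14 to 0.42), and with libraries left out it ran from 0.13 to 0.16. Rfc4, a small loader subunit, had 32.5, 31.9 and 35.6 CPM in DMHCA tumours and 19.6, 37.0 and 23.8 CPM in vehicle tumours, where replicate 2 was above every DMHCA library. Its log2 fold change of 0.32 ± 0.24 ran from 0.13 without vehicle replicate 1 to 0.62 without vehicle replicate 2. Its exons overlap those of Eif4a2 on the opposite strand, whose mean count was 1939% of its own. Rfc3 was at 0.13, Rfc5 at 0.023 and Rfc2 at -0.042.

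All 4 genes of fragment maturation and single-strand binding had positive log2 fold changes, with a median of 0.12, which ran from 0.039 without vehicle replicate 3 to 0.22 without vehicle replicate 2. Fen1, the flap nuclease that trims Okazaki fragments, had 67.4, 77.6 and 70.9 CPM in DMHCA tumours and 67.2, 65.7 and 63.1 CPM in vehicle tumours. Its groups did not overlap, though DMHCA replicate 1 and vehicle replicate 1 were almost level. The log2 fold change was 0.14 ± 0.13, and 0.081 without DMHCA replicate 2. Fen1 shares exon sequence with Tmem258 on the opposite strand, whose mean count was 123% of its own. Rpa2, a subunit of the single-strand binding protein RPA, had 31.0, 33.6 and 32.4 CPM in DMHCA tumours and 29.3, 32.2 and 24.9 CPM in vehicle tumours, a log2 fold change of 0.17 ± 0.15, and 0.076 without vehicle replicate 3. Lig1, which seals the fragments, was at 0.096 and Rpa1, the large RPA subunit, at 0.068.

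The 4 genes of deoxynucleotide supply had a median log2 fold change of 0.23, the highest of the 9 roles with all libraries, though not without DMHCA replicate 3, when it was 0.196 against 0.22 for the E2F and cyclin E genes. Rrm2, the small subunit of ribonucleotide reductase that limits its activity in S phase, had 75.8, 103.5 and 78.6 CPM in DMHCA tumours and 61.9, 87.4 and 46.8 CPM in vehicle tumours. DMHCA replicate 2 was the highest and vehicle replicate 3 the lowest, and vehicle replicate 2 was above DMHCA replicates 1 and 3. For Rrm2 the log2 fold change of 0.40 ± 0.25 (95% interval -0.17 to 0.97) became 0.21 without vehicle replicate 3. Tyms, thymidylate synthase, had 39.4, 39.5 and 45.6 CPM in DMHCA tumours and 35.1, 42.9 and 30.5 CPM in vehicle tumours, a log2 fold change of 0.20 ± 0.17, and 0.093 without vehicle replicate 3. Rrm1, the large reductase subunit, was at 0.25 ± 0.22. Tk1, the salvage enzyme thymidine kinase, was at 0.15 ± 0.26. Its highest values were in DMHCA replicate 1 (98.0 CPM) and vehicle replicate 1 (79.4 CPM). Gins3 also had its highest values in these libraries (7.07 CPM in DMHCA replicate 1 and 7.64 CPM in vehicle replicate 1).

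Among the E2F factors and E cyclins, Ccne1 and E2f1 were the members at the ends of the range. The median of these 4 genes was 0.15, and it ran from -0.028 without DMHCA replicate 2 to 0.28 without vehicle replicate 2. Ccne1, cyclin E1, which drives the entry into S phase with Cdk2, lies on chromosome 7 (38097984 to 38107534, minus strand, GRCm38). It had 17.04, 17.2 and 15.02 CPM in DMHCA tumours and 12.9, 13.3 and 8.95 CPM in vehicle tumours, and every DMHCA library lay above every vehicle library. The log2 fold change was 0.49 ± 0.22 (95% interval -0.022 to 0.9996, unadjusted p = 0.0583, edgeR adjusted p = 0.99), and 0.33 without vehicle replicate 3. Ccne2, cyclin E2, had 12.6, 14.5 and 13.1 CPM in DMHCA tumours and 9.53, 14.1 and 8.93 CPM in vehicle tumours, and vehicle replicate 2 lay inside the DMHCA range. Its log2 fold change of 0.30 ± 0.24 became 0.19 without vehicle replicate 3, and its exons overlap those of Ints8 on the opposite strand, whose mean count was 484% of its own.

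E2f1, the activator that switches on S-phase genes, had 11.5, 11.5 and 9.86 CPM in DMHCA tumours and 20.2, 13.8 and 10.5 CPM in vehicle tumours. Vehicle replicate 1 was the highest library, and the lowest vehicle library lay inside the DMHCA range. The log2 fold change was -0.43 ± 0.27 (95% interval -1.07 to 0.20), and -0.14 without vehicle replicate 1. E2f2, a second activator, was at 0.0055 ± 0.29. In TPM the ratio of Ccne1 to E2f1 was 2.20, 2.26 and 2.27 in DMHCA tumours and 0.943, 1.41 and 1.25 in vehicle tumours. That ratio, too, was among the 5 chosen after the single values had been seen, and it was not tested. The other 3 ratios overlapped between the groups. Rrm1 to Rrm2 was 0.871 to 1.92 in DMHCA tumours and 1.36 to 2.31 in vehicle tumours. Ccne1 to Ccne2 was 1.72 to 2.14 in DMHCA tumours and 1.23 to 1.82 in vehicle tumours, and E2f1 to E2f2 was 1.32 to 2.53 in DMHCA tumours and 1.77 to 2.78 in vehicle tumours.

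The Ccne1 promoter is printed because this gene had the largest positive log2 fold change of the members, and it holds none of the E2F words in this window. It runs in the direction of the gene on the minus strand of GRCm38.p6, with no capitals.
Ccne1, chr7:38107441-38107740: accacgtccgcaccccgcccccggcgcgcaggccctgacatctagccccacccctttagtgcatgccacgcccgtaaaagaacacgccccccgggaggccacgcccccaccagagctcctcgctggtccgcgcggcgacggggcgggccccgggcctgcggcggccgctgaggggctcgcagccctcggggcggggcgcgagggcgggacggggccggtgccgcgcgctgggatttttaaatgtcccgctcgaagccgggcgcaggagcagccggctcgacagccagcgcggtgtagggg
Its GC content is 76%, and it also holds 0 CCAAT words and 0 cell cycle homology words. The absence of a word says only that these letters are not in the window.

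**Figure D4:**
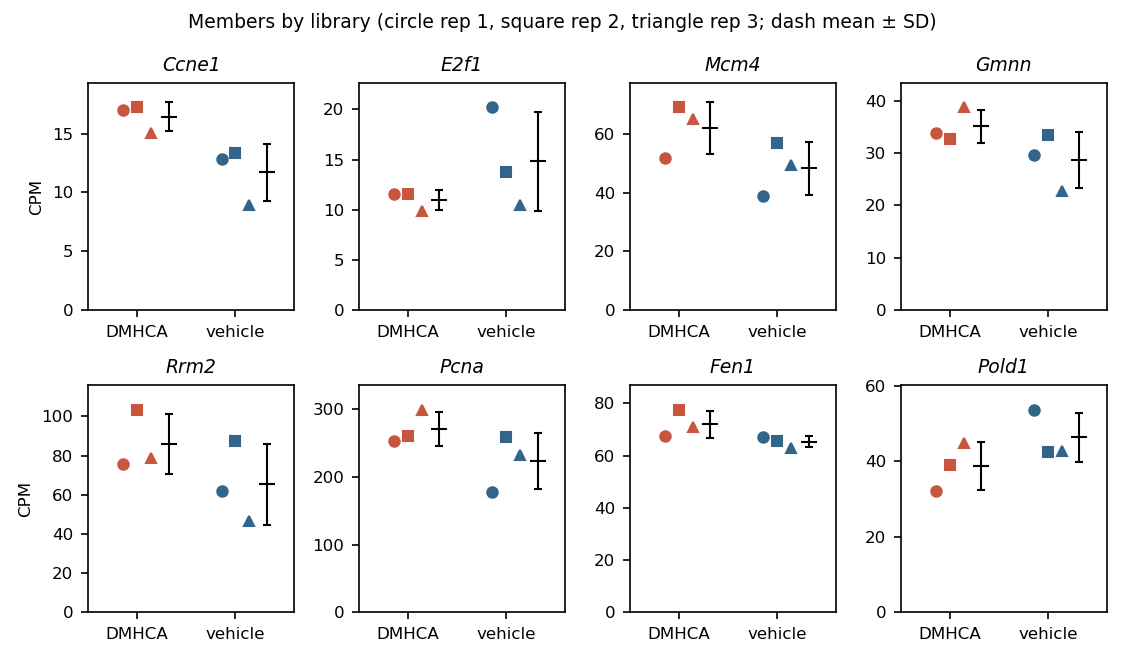
CPM (y axis, from 0) of 8 members in the DMHCA libraries (orange, left) and the vehicle libraries (blue, right), with the mean and SD of 3 libraries as black bars. The groups are apart for Ccne1 and, narrowly, for Fen1, while E2f1 and Pold1 have their highest point in vehicle replicate 1.

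Genes of chromatin assembly had the only negative median of the 9 roles, -0.067 over 3 genes, and it was 0.088 without vehicle replicate 1. Chaf1a, the large subunit of the histone chaperone CAF-1, had 23.6, 30.1 and 27.0 CPM in DMHCA tumours and 37.0, 26.2 and 25.6 CPM in vehicle tumours, a log2 fold change of -0.14 ± 0.19, and 0.054 without vehicle replicate 1. Its exons overlap those of Ubxn6 on the opposite strand, whose mean count was 166% of its own. Uhrf1, which brings the maintenance methyltransferase to newly copied DNA, had 46.1, 72.3 and 58.9 CPM in DMHCA tumours and 74.6, 64.6 and 46.6 CPM in vehicle tumours, at -0.067 ± 0.23. Each group held both a high and a low library for Uhrf1. Its expected counts were not whole in 5 of 6 libraries, though no exon of another gene overlaps its own. Chaf1b, the middle CAF-1 subunit, was at 0.050. The checkpoint mediator Clspn had 14.1, 21.1 and 19.3 CPM in DMHCA tumours and 19.4, 16.9 and 13.4 CPM in vehicle tumours (log2 fold change 0.13 ± 0.23, from 0.0027 without vehicle replicate 3 to 0.28 without DMHCA replicate 1). Dtl, the adaptor of the ubiquitin ligase that destroys Cdt1 in S phase, had 28.1, 27.0 and 32.8 CPM in DMHCA tumours and 29.1, 25.6 and 25.7 CPM in vehicle tumours (log2 fold change 0.13 ± 0.15, from 0.039 without DMHCA replicate 3 to 0.19 without vehicle replicate 1). Both overlapped between the groups.

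Levels differed far more between members than between groups. In TPM, Pcna averaged 216 ± 32.7 and Orc1 2.32 ± 0.531 (SD, n = 6 libraries), and their ratio ran from 75.98 to 147 over the libraries. Within the MCM ring, whose subunits are present once each in the protein complex, Mcm7 was the highest in 6 of 6 libraries at 60.8 ± 11.2 TPM. It was followed by Mcm5 (28.8 TPM), Mcm3 (26.9 TPM), Mcm6 (21.7 TPM), Mcm2 (20.5 TPM) and Mcm4 (17.7 TPM). Mcm3 was above Mcm6 in 6 of 6 libraries, whereas Mcm5 exceeded Mcm3 in 4, Mcm6 exceeded Mcm2 in 3 and Mcm2 exceeded Mcm4 in 4, so these neighbours did not differ beyond their spread. Mcm7 overlaps Cops6 and Ap4m1 on the opposite strand, with mean counts of 105% and 74.4% of its own, so its level is uncertain. Values and levels of Rfc5 (Wsb2, 187% of its own count), Gins2 (Gse1, 35.5%), Lig1 (Zswim9, 20.9%) and Tk1 (Afmid, 12.7%) are uncertain for the same reason. Expected counts of Lig1, Tk1 and Cdc45 were whole in every library, whereas those of Rfc5 and Gins2 were not whole in 6 of 6 libraries.

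GINS subunits ran from 41.7 ± 2.24 TPM for Gins4 to 3.34 ± 0.514 TPM for Gins3, with Gins1 (21.2 TPM) and Gins2 (19.3 TPM) between them. In the polymerase alpha-primase complex Prim1 (36.1 TPM) was above Prim2 (14.97 TPM), Pola2 (12.7 TPM) and Pola1 (6.13 TPM), and the ratio of Prim1 to Pola1 ran from 5.28 to 6.56 over the libraries. The loader subunit Rfc2 led its complex at 62.3 TPM, ahead of Rfc3 (34.4 TPM) and Rfc4 (33.9 TPM), which changed places between libraries, Rfc5 (19.7 TPM) and Rfc1 (16.95 TPM). Gmnn stood at 50.4 TPM against 14.1 TPM for its target Cdt1. Of the regulators, Ccne1 averaged 9.06 TPM, E2f1 5.61, Ccne2 5.28 and E2f2 2.66 TPM, and E2f1 exceeded Ccne2 in 2 of 6 libraries.

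**Figure D5:**
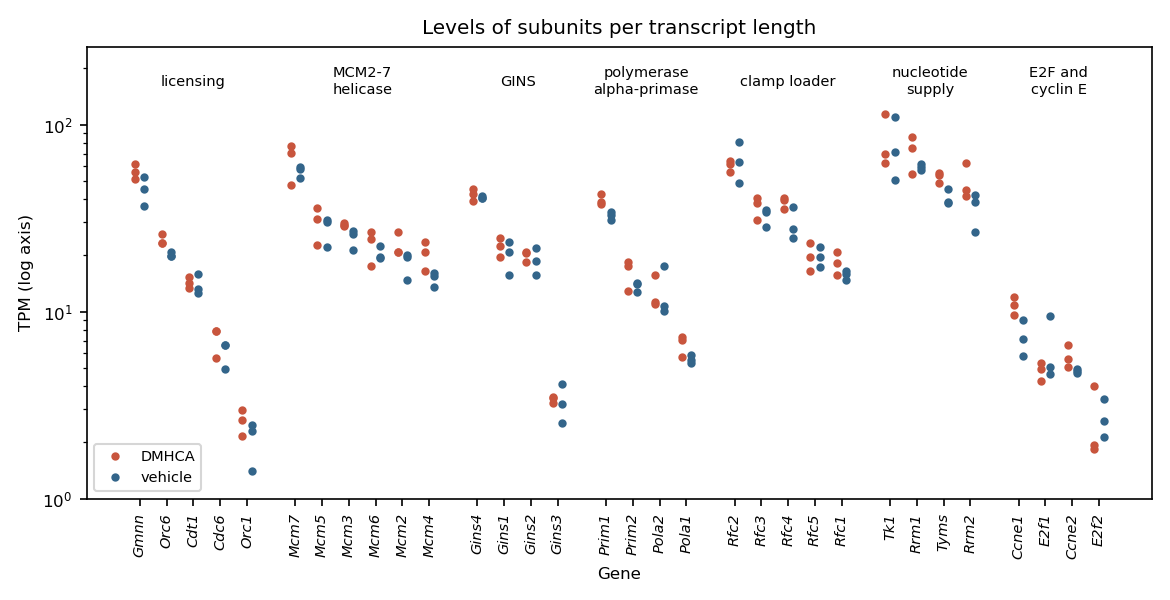
TPM (y axis, log scale) of the members of 7 complexes or roles (x axis) in the DMHCA libraries (orange, left of each pair) and vehicle libraries (blue, right). The gap is widest between Gmnn and Orc1, at a ratio of 18.3 to 26.04 over the libraries, and next between Gins4 and Gins3, at 9.83 to 16.1, and gaps between DMHCA and vehicle are small beside these.

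Further genes of replication, 58 in all and none of them members, were examined in the same way. All were tested, 0 were called, and 40 had positive and 18 negative log2 fold changes, with a median of 0.14. The groups did not overlap for 10 of them higher with DMHCA (17.2%, against 3.02% of all genes) and for 1 lower (4.22% of all genes). Their mean deviation was -0.013, 0.042 and 0.15 in DMHCA replicates 1 to 3 and -0.11, 0.015 and -0.087 in vehicle replicates 1 to 3. Vehicle replicate 1 was thus their lowest library, where vehicle replicate 3 was the lowest for the members. Cdc7, the kinase that fires origins, had 27.8, 31.0 and 34.7 CPM in DMHCA tumours and 23.8, 26.4 and 23.4 CPM in vehicle tumours, a log2 fold change of 0.34 ± 0.15 (95% interval -0.0088 to 0.70), and the groups were apart. Orc3, an origin complex subunit, was at 0.38 ± 0.18, and 0.22 without vehicle replicate 1, and Tipin, a fork protection factor, at 0.37 ± 0.18. Slbp, which binds the stem loop of histone mRNA, was at 0.28 ± 0.14. With Cdc7 these were the 4 with the smallest unadjusted p, and their edgeR adjusted p was 0.99.

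Mitosis genes, which mark the next stage of the cycle, all had positive log2 fold changes (21 of 21, median 0.32), and 0 were called, with 2 at an unadjusted p under 0.05. Their mean deviation was -0.042, 0.28 and 0.23 in DMHCA replicates 1 to 3 and -0.22, 0.15 and -0.40 in vehicle replicates 1 to 3, in nearly the same order of libraries as the replication members. The groups did not overlap for 3 of the 21, all higher with DMHCA (14.3%, against 3.02% of all genes). One was Cdk1, the kinase that drives mitosis, with 83.7, 89.03 and 85.9 CPM in DMHCA tumours and 53.3, 76.01 and 60.5 CPM in vehicle tumours. Its log2 fold change was 0.45 ± 0.16 (95% interval 0.066 to 0.83, unadjusted p = 0.0268, edgeR adjusted p = 0.99). Mki67, the proliferation marker Ki-67, had 269, 438 and 578 CPM in DMHCA tumours and 289, 438 and 322 CPM in vehicle tumours, at 0.29 ± 0.29, and 0.015 without DMHCA replicate 3. Top2a, the topoisomerase of S phase and mitosis, had 133, 175 and 198 CPM in DMHCA tumours and 124, 177 and 130 CPM in vehicle tumours, at 0.23 ± 0.21, and 0.099 without DMHCA replicate 3. Whether the mitosis and replication lists differ from each other was not tested.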

How the data were processed

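RNA was sequenced from 6 mammary tumour samples, 3 DMHCA and 3 vehicle. The authors deposited RSEM expected counts (estimated counts that need not be whole) and TPM per gene, per the file headers. Of the tools in the submitters' processing notes, those that bear on the counts are STAR 2.7.9a and RSEM 1.3.1, with the build GRCm38. No source used here gives the annotation release or the strand setting. Whether reads of overlapping genes on opposite strands were told apart is therefore not known. Exons of 15 members overlap another gene (GENCODE M21).

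Expected counts were rounded and tested with edgeR 4.0.16 in R 4.3.3 (filterByExpr minimum count 10, TMM, robust quasi-likelihood F test, no covariates), with Benjamini-Hochberg adjustment over 17396 genes, called under 0.05. CPM use TMM-adjusted totals, except marker sums, which use library totals. SE was taken as the size of the fold change (log2) over the root of its F value. Mean deviations use log2 CPM with a prior count of 2. The fit was first tested on simulated data. It called 0 of 67 genes changed 1.5-fold, 8 of 67 changed 2-fold and 45 of 66 changed 4-fold, with 8 false calls. For genes at large, the lack of a call alone therefore says little about changes of 1.5-fold or 2-fold. The changed genes were not limited to members, so the share of members that would be called was not tested. Members had a median SE of 0.190, against 0.272 over all tested genes. Their sizes of change are bounded by the intervals given above, which lay within 2-fold for 44 of 46, and not by the lack of a call.

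Alternatives were other scalings and filters, no robust estimation, a replicate block, each library left out, DESeq2 1.42.0, limma 3.58.1 as voom with sample weights, and limma-trend on TPM (log2, pseudocount 1). Values per library are given for the 2 members of each role with the smallest unadjusted p, members whose groups do not overlap, and 10 set members. Orc1, Tk1, other members described and the luminal markers named were added after their values were seen. Members and lists were chosen with earlier results of these data known.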

Additional observations from a re-analysis of the deposited data

How the results depend on the processing

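Members called numbered 0 in every alternative run, and positive members numbered 37 to 39 of 46 in all but the fits without 1 library, where they ran from 28 (without vehicle replicate 3) to 42. Genes called over the whole table were 0 by edgeR in each setting and by both limma fits, and 8 by the DESeq2 Wald test, none a member. At an unadjusted p under 0.05 all genes split into 125 higher and 413 lower by edgeR, 182 and 331 with upper-quartile factors, and 211 and 104 by limma-trend on TPM. At the same p, 7 members were higher without vehicle replicate 2, where 1188 of all 17963 genes tested were higher and 1254 lower. In any other setting at most 2 members were higher. Members higher in every DMHCA library numbered 3, with 6 under upper-quartile factors (4.56% of all genes) and 10 on TPM (6.94%). Such members numbered 2 with DESeq2 size factors (3.23% of all genes), without the low-count filter (3.11%) and in the DESeq2 Wald test (2.95%). With libraries left out they ran from 2 to 19, where 19 (without vehicle replicate 2) stood against 17.1% of all genes and 14 (without DMHCA replicate 1) against 8.09%. The lowest number, 2 (without vehicle replicate 3), stood against 7.85%. Members lower in every DMHCA library ran from 0 to 2. The main fit had 0, against 4.22% of all genes, and the fit without vehicle replicate 3 had 2, against 8.3%. The median of the nucleotide genes ran from 0.15 to 0.41 with libraries left out.

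Cdt1 turned positive with upper-quartile factors (0.016), by limma-voom (0.026) and on TPM (0.047), and ran from -0.097 to 0.041 with libraries left out. Clspn turned negative on TPM (-0.090). With libraries left out Gins1 ran from -0.074 to 0.36, Chaf1a from -0.23 to 0.054 and Uhrf1 from -0.24 to 0.088. The cause was not tested. The replicate numbers of the titles were not shown to pair samples, as deviations of same-numbered libraries correlated at 0.17, 0.038 and 0.063. DMHCA replicates 1 and 3 correlated best with the vehicle library of the same number. DMHCA replicate 2 correlated best with vehicle replicate 3 (0.055). With the replicate number as a block 37 members were positive, the median was 0.13 and 0 were called.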
